A study of Mus musculus with 4 samples.

Results

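Mesothelial cells of the adult mouse liver were chosen by measured transcripts out of the adult single-cell libraries. A cell barcode was taken when it had at least 300 genes, at most 25% mitochondrial unique molecular identifiers (UMIs, each standing for 1 captured RNA molecule), no UMI of the epithelial gene Epcam, and at least 1 UMI of at least 2 of the 6 genes Msln, Upk3b, Upk1b, Lrrn4, Gpm6a and Wt1. Of 11981 adult barcodes that passed the filters, 99 met this rule, 68 in the library labelled Ctrl and 31 in the library labelled IHG. All 4 libraries of the series together hold 29335 barcodes. The levels of these 6 genes and the absence of Epcam chose the cells, so they are given as a description and support nothing else.

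Both adult libraries were made from livers of male offspring at 8 weeks. Ctrl stands for offspring of control mothers and IHG for offspring of mothers with intrauterine hyperglycemia, that is, raised glucose during the pregnancy. How the hyperglycemia was produced and the mouse strain are not given in the sources used here. Per the labels' protocols each library was a pool of 3 animals, whose livers were rinsed through the portal vein, broken up by an enzyme mix of collagenases, DNase and hyaluronidase, and cleared of red cells. A second pair of libraries came from male fetuses at E18.5, late in gestation. With 1 pooled library per group, no difference between Ctrl and IHG has a replicate check and no test between the groups was possible. Every interval below covers counting error only, not differences between cells, animals, digestions or captures.

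The mesothelium is the flat, simple epithelium that covers the liver and the other organs of the body cavities and lines the cavity wall. It derives from mesoderm, keeps both keratins and vimentin, and coats itself with a glycocalyx of mucins and hyaluronan that lets organs slide over each other. In liver development it is known as a source of stellate cells and fibroblasts, and in peritonitis it secretes chemokines, complement and matrix.

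Most of the chosen cells had 5 or 6 of the rule genes, and some barcodes lay 1 gene short of the rule. Among Ctrl barcodes without Epcam, 37 had all 6 genes, 22 had 5, 7 had 4, 2 had 3, none had 2, 40 had 1 and 4588 had none. In IHG, 20 had all 6 genes, 4 had 5, 2 had 4, 2 had 3, 3 had 2, 36 had 1 and 6310 had none. Just outside the rule, 11 of the 40 Ctrl barcodes with 1 of the genes and 17 of the 36 in IHG fell among fibroblast barcodes, and 6 Ctrl barcodes and 1 IHG barcode with at least 2 of the genes carried Epcam UMIs. The cells were deeper than the remaining adult barcodes and alike between libraries. The median was 7998 UMIs (range 689 to 23583) in Ctrl and 8695 (675 to 25737) in IHG, against 2556 and 2243 in the other barcodes. The median share of mitochondrial UMIs was 3.22% and 3.19%. The adult libraries share 8 cell barcodes with each other, none of them a mesothelial cell.

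**Figure D1:**
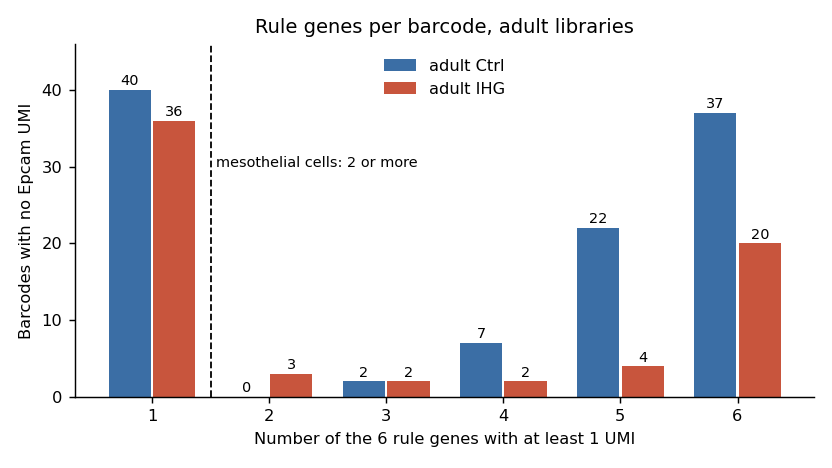
Number of the 6 rule genes with at least 1 UMI (horizontal axis) against the number of barcodes without Epcam (vertical axis), for adult Ctrl (blue) and adult IHG (red); barcodes with none of the genes are not drawn. Within each library the bars for 2, 3 and 4 genes are the lowest, and 59 of the 68 Ctrl cells and 24 of the 31 IHG cells have 5 or 6.

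Mesothelial cells were 1.31% of the Ctrl barcodes (68 of 5195, exact Clopper-Pearson 95% interval 1.02 to 1.66) and 0.457% of the IHG barcodes (31 of 6786, 0.311 to 0.648). The share was 2.87-fold lower in the IHG library, a log2 ratio of -1.52 (counting interval -2.18 to -0.89). Cholangiocyte barcodes, the bile duct epithelium, defined as Epcam-positive with at least 2 of 6 duct genes, stood in nearly the same proportion, 214 (4.12%) in Ctrl and 100 (1.47%) in IHG, a log2 ratio of -1.48. There were thus 0.318 mesothelial cells per cholangiocyte in Ctrl and 0.310 in IHG. Fibroblast barcodes, with at least 2 of Col1a1, Col1a2, Col3a1, Dcn, Lum and Pdgfra and in neither of the other sets, made up 0.943% (49) and 0.973% (66), so mesothelial cells per fibroblast were 1.39 and 0.470. Whether fewer cells were present in the organ or fewer were freed by the digestion cannot be told apart.

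Beyond the rule genes, the cells carried a broad mesothelial profile in both libraries. Levels are given as UMIs of a gene per 1000000 UMIs of the summed cells (CPM), and because each transcript is counted once at its 3′ end they need no length correction. Among 2027 genes with at least 20 UMIs in the mesothelial cells of each library, 678 (33.4%) were at least 2-fold above the other adult barcodes in both libraries and 50 (2.47%) at least 2-fold below. Against fibroblast barcodes alone the shares were 13.4% above and 2.02% below. A gene needed UMIs in the mesothelial cells to be read, so genes low in them rarely entered. The shares above and below are thus set in part by that minimum and are given as a description.

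The genes most restricted to these cells encode surface, matrix and signalling proteins. Pkhd1l1, a large fibrocystin-like membrane protein, had 106 UMIs in Ctrl cells and 54 in IHG cells, a log2 ratio over the other barcodes of 9.44 and 9.99. Bnc1, the zinc finger protein basonuclin, had 32 and 25 UMIs (9.31 and 9.38). Muc16, the membrane mucin that carries the CA125 antigen, had 114 and 30 (8.19 and 10.38). All of these were nearly absent from the rest of the liver barcodes.

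Rspo1, a secreted enhancer of Wnt signalling, was found in 52 of 68 Ctrl cells and 26 of 31 IHG cells, with 128 and 90 UMIs (7.67 and 7.65 over the other barcodes). Nkain4, a membrane protein that interacts with the sodium pump, had 286 and 147 UMIs. Cldn15, a tight junction claudin, had 112 and 66. Igfbp5 (1002 and 380 UMIs) and Igfbp6 (1610 and 896), which bind insulin-like growth factors, and Gpc3 (462 and 222), a heparan sulfate proteoglycan, were abundant in both. Simple-epithelium keratins were present alongside vimentin: Krt19 in 54 of 68 and 23 of 31 cells, Krt18 in 43 and 22, Krt8 in 46 and 20, with Vim at 2408 and 1026 UMIs. Krt8 stood below the other barcodes (log2 ratio -1.17 and -0.27), which include the cholangiocytes.

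**Figure D2:**
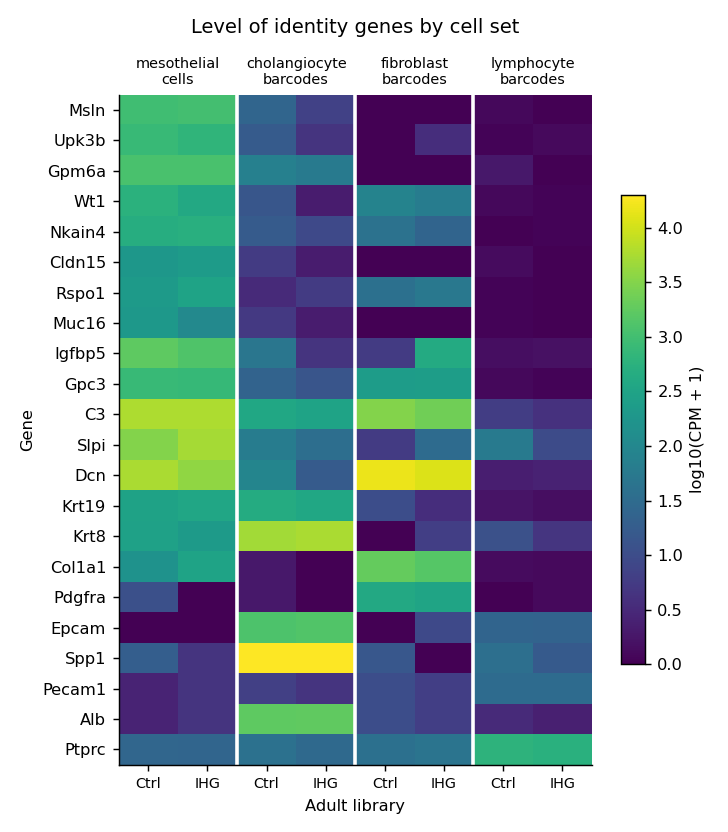
Level of 22 genes (rows) in mesothelial cells and in cholangiocyte, fibroblast and lymphocyte barcodes of the adult Ctrl and IHG libraries (columns), coloured by log10(CPM + 1). Msln, Upk3b, Cldn15 and Muc16 are highest in the mesothelial cells, C3 and Dcn are shared with fibroblasts, and Krt8, Epcam and Spp1 peak in cholangiocytes; Epcam is 0 in the mesothelial cells by the rule.

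Many defining markers of other cell types were at 0, while some further genes of their lists were detected. Stab2, Lyve1 and Cdh5 (endothelium), C1qa, Clec4f and Lyz2 (macrophages), Lrat and Reln (stellate cells) and Hba-a1 (red cells) had no UMI in any of the 99 cells, a count that allows, at a limit of 3 counts, up to 4.41% of the Ctrl cells and 9.68% of the IHG cells to carry a UMI. Of 12 endothelial genes 6 were detected, with a summed level of 84.6 CPM in Ctrl and 68.7 in IHG and per cell from 0 to 398 and from 0 to 414 CPM. The receptor gene Kdr made up most of it, with a UMI in 22 of 68 and 9 of 31 cells, against 0.264% of Ctrl lymphocyte barcodes. Of 13 macrophage and monocyte genes 7 were detected (64.3 and 107 CPM, per cell up to 519 and 477), with Cd14 at 19 and 20 UMIs. All 14 hepatocyte genes were detected (653 and 612 CPM, per cell up to 2431 and 1608), and Trf, which encodes transferrin, gave 369 and 162 of the UMIs while Alb had 1 in each library. Of 14 cholangiocyte genes 9 were detected (537 and 571 CPM, per cell up to 2182 and 1372), led by the keratins Krt19 and Krt7, against 25268 and 26323 CPM in cholangiocyte barcodes. The part of RNA from other cells in the results below was not tested. Of 15 fibroblast and stellate markers 11 were detected, led by Dcn, and Pdgfra was found in 5 Ctrl cells and no IHG cell. Leukocyte RNA was present in a minority. Ptprc, the leukocyte antigen CD45, had a UMI in 8 of 68 Ctrl cells and 5 of 31 IHG cells, and the summed level of 7 leukocyte genes ran from 0 to 5696 CPM per cell in Ctrl (median 0) and from 0 to 3658 in IHG (median 115.0). Values without the Ptprc-positive cells are given where they turn a direction. Msln RNA was rare in cells that should lack it, with a UMI in 2 of 2655 Ctrl and 0 of 3685 IHG lymphocyte barcodes, which at the same limit allows up to 0.0814% of the latter, at median depths of 2702 and 2368 UMIs.

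Complement C3 was among the most abundant transcripts and stood at close levels in the 2 libraries. Every cell had it, with 2 to 175 UMIs per cell in Ctrl (median 42.5) and 2 to 159 in IHG (median 41). The level was 5908 CPM in Ctrl and 5974 in IHG, a log2 ratio of 0.02 (-0.07 to 0.10). After thinning each cell to 1000 UMIs, C3 was still seen in 94.0% and 96.7% of cells, against 1.62% and 0.896% of unthinned lymphocyte barcodes. In fibroblast barcodes C3 had a ratio of -0.47 and in cholangiocyte barcodes -0.26.

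Further genes of the classical complement pathway accompanied C3. Serping1, the C1 inhibitor, had 1053 and 498 UMIs, C4b 848 and 307, C2 396 and 180, and the C1 proteases C1s1 and C1ra 376 and 138, and 250 and 92. Of 18 listed complement genes 10 had at least 20 UMIs, 4 of them higher and 6 lower in IHG, none by 2-fold, with a median log2 ratio of -0.05. The intervals of C4b (-0.44), C1s1 (-0.42) and C1ra (-0.42) lay below 0. The acute-phase list, plasma proteins that the liver makes in inflammation and that the title of the series names, was nearly silent here: 15 of its 23 genes had no UMI and only Steap4, a metalloreductase, passed 20 UMIs. Steap4 had 81 UMIs in 30 Ctrl cells and 16 UMIs in 11 IHG cells, a log2 ratio of -1.28 (-2.19 to -0.53), and in fibroblast barcodes the ratio was -1.75.

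Between the libraries, 5243 genes had at least 20 UMIs in the mesothelial cells of both together. Of these, 201 (3.83%) were at least 2-fold higher in IHG and 239 (4.56%) at least 2-fold lower, 440 (8.39%) in either direction. By any amount, 50.1% were higher and 49.9% lower, and the median log2 ratio was 0.0021. The counting interval left out 0 for 602 genes. In counts simulated with counting error alone, 5.02% of unchanged genes passed 2-fold in either direction. Among the 711 genes that reached 200 CPM in 1 of the libraries, only 21 (2.95%) passed 2-fold, 5 higher and 16 lower in IHG. The 6 rule genes did not pass it: Msln had 557 and 297 UMIs (log2 ratio 0.12), Gpm6a 688 and 341 (0.01), Upk3b 457 and 190 (-0.24), Upk1b 170 and 69 (-0.27), Lrrn4 117 and 59 (0.04) and Wt1 324 and 116 (-0.46, -0.78 to -0.15). The list of 30 other mesothelial genes had 29 with at least 20 UMIs, 20 higher and 9 lower, with a median of 0.12.

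Among genes that reached 200 CPM in 1 library, the lowest in IHG was Hmox1, heme oxygenase 1, which breaks down heme and is a classical target of the oxidant-sensing factor NRF2 (chr8:75093621-75100589, mm10). In Ctrl 29 of 68 cells held 154 UMIs, up to 31 in a cell, and in IHG 11 of 31 cells held 14 UMIs, up to 3 in a cell. The level was 260.7 CPM against 48.1 CPM, a log2 ratio of -2.39 (-3.34 to -1.65). Cells without any Hmox1 UMI were the majority in both libraries, and every cell with more than 3 UMIs was in Ctrl. At 1000 UMIs per cell Hmox1 was seen in 9 of 67 Ctrl cells (13.4%, Clopper-Pearson 6.33 to 24.0) and in 0 of 30 IHG cells (0 to 11.6). The same gene was close to equal in cholangiocyte (-0.15, -0.61 to 0.27) and fibroblast barcodes (-0.19, -0.69 to 0.32), and in lymphocyte barcodes its ratio was -0.91; the differences between the cell sets were not tested.

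The metallothioneins, small cysteine-rich proteins that bind zinc and copper and scavenge oxidants, were lower in IHG as well. Mt1 had 1 to 238 UMIs per cell in Ctrl (median 40.5) and 2 to 109 in IHG (median 20), in every cell of both. Its level was 6686 CPM in Ctrl and 3303 in IHG, a log2 ratio of -1.02 (-1.12 to -0.92). Mt2 had 1274 and 318 UMIs, medians of 14 and 9 per cell, and a ratio of -0.98 (-1.16 to -0.80). The ranges overlapped between libraries while the medians stood apart. Across cells with at least 3000 UMIs and no Ptprc, which share their library, Mt1 and Mt2 followed each other (Spearman rho 0.89 over 56 Ctrl cells and 0.67 over 25 IHG cells). Metallothionein was lower in IHG also in fibroblast (Mt1 -1.12, Mt2 -0.97) and lymphocyte barcodes (-1.09, -1.16), and was higher in cholangiocyte barcodes (0.31, 0.56). Mt1 had a UMI in 10.1% of Ctrl and 6.16% of IHG lymphocyte barcodes, and the part of free RNA in these ratios was not tested.

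The antioxidant list includes Hmox1, Mt1 and Mt2. Of its 29 genes 26 had at least 20 UMIs, 8 higher and 18 lower in IHG, with 2 and 4 past 2-fold and a median log2 ratio of -0.38. The intervals of 12 lay below 0 and of 2 above. Over all 5243 genes read, 3.83% were at least 2-fold higher, 4.56% at least 2-fold lower, and 602 intervals left out 0. Without Hmox1, Mt1 and Mt2, left out after their values were seen, 8 of 23 genes were higher and 15 lower, 2 and 2 past 2-fold, with a median of -0.35. The same list had a median of 0.01 in cholangiocyte, -0.19 in fibroblast and -0.35 in lymphocyte barcodes. Summed over the list, the level was 27374 CPM in Ctrl mesothelial cells and 19042 CPM in IHG. Most of this sum and of its difference lay in the 2 metallothioneins and the 2 ferritin subunits: without these and Hmox1 it was 4730 CPM in Ctrl and 4111 CPM in IHG.

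Nfe2l2, which encodes NRF2 itself, had 148 UMIs in 52 Ctrl cells and 39 in 21 IHG cells (-0.89, -1.45 to -0.38). Txnrd1, thioredoxin reductase, had 62 UMIs in 25 cells and 13 in 10 cells (-1.19, -2.22 to -0.35). Gclm and Gclc, the subunits of the enzyme that starts glutathione synthesis, had 44 and 11 (-0.93), and 22 and 4 UMIs (-1.30, with an interval that reached 0.12). These low counts make the single ratios wide, and all 4 lay below 0. Sod2, the mitochondrial superoxide dismutase, had 158 and 48 UMIs (-0.69), and the ferritin subunits Fth1 (5723 and 2205, -0.35) and Ftl1 (2275 and 846, -0.40) were lower by less. Higher in IHG were Gsta4, a glutathione transferase for lipid peroxidation products, with 38 UMIs in 24 cells and 47 in 19 cells (1.32, 0.68 to 1.98), and Gpx3, the secreted glutathione peroxidase, with 14 and 19 UMIs (1.45, 0.39 to 2.57).

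The promoters of 4 of the lower genes are shown because metallothioneins are known to be driven through metal response elements and Gclm and Txnrd1 through antioxidant response elements. Each line is the 250 bases before a RefSeq start on the gene's strand (build GRCm38.p6), 5′ to 3′, with matches of the metal response core TGCACNC or TGCGCNC (Mt1, Mt2) or of the antioxidant response core TGACNNNGC (Gclm, Txnrd1), on either strand, in capitals.
Mt1, chr8:94178839-94179088, plus strand: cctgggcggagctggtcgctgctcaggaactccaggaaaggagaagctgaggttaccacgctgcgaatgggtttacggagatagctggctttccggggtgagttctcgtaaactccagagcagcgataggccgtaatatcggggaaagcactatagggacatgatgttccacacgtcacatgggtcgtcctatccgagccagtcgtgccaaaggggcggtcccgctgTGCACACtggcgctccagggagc
Mt2, chr8:94172368-94172617, plus strand: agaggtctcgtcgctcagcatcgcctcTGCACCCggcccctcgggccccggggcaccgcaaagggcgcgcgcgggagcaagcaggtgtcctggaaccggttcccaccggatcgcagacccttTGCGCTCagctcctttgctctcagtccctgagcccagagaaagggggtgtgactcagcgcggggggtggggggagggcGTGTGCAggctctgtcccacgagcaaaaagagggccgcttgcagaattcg
Gclm, chr3:122245307-122245556, plus strand: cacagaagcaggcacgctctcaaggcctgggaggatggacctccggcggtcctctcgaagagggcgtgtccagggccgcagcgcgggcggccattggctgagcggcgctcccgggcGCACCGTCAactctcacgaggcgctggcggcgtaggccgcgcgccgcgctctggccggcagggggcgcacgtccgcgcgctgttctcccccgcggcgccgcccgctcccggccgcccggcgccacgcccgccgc
Txnrd1, chr10:82858956-82859205, plus strand, the second of 3 starts: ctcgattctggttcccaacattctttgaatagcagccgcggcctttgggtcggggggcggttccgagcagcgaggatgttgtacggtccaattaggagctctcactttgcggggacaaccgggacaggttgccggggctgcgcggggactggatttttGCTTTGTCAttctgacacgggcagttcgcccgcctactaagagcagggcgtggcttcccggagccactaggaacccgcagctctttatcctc
The Mt1 window holds 1 metal response match, whose first base lies 23 bases before the start, and the Mt2 window holds 3, at 223, 128 and 50 bases. The GENCODE M21 annotation gives both genes transcripts that start further downstream, so the sequence just before those starts is not in these windows. The Gclm match begins 134 bases and the Txnrd1 match 92 bases before the start, both on the minus strand, and the Gclm match overlaps a metal response match. The windows of the other Txnrd1 starts, not printed, hold no antioxidant response match. These letters are common. Of all 32851 promoter windows of this length 21.4% hold the metal response core, as do 23.3% of the 30 windows of the antioxidant list. The antioxidant core is in 10.2% of all windows and in 20% (6) of those 30. A match is a description and not a bound site.

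**Figure D3:**
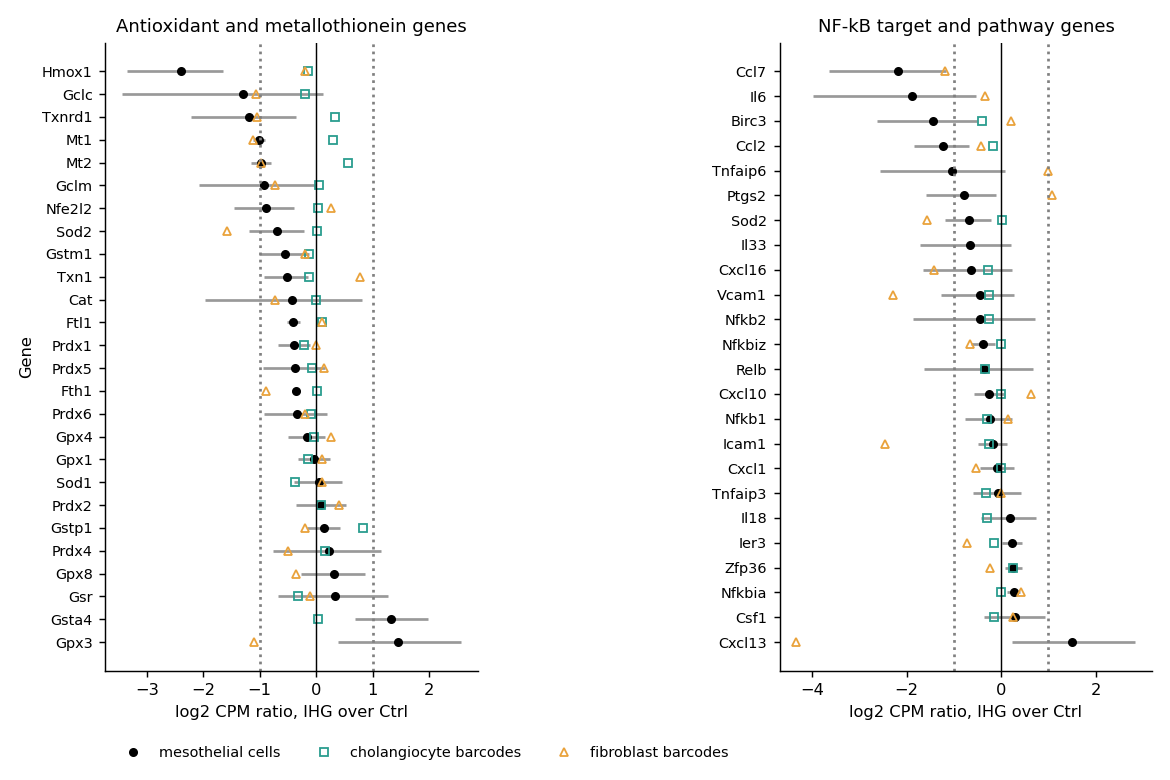
Log2 CPM ratio, IHG over Ctrl (horizontal axis), of the antioxidant and metallothionein genes (left, 26 genes) and the NF-kB genes (right, 24 genes) with at least 20 UMIs in mesothelial cells. Black points with grey 95% counting intervals are mesothelial cells, green squares cholangiocyte barcodes and orange triangles fibroblast barcodes with at least 20 UMIs of the gene; dotted lines mark 2-fold. The top rows are Hmox1 at -2.39 and Ccl7 at -2.19.

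Chemokines and other NF-kB targets differed by gene. NF-kB is the transcription factor that switches on inflammatory genes and its own inhibitors. Ccl2, the monocyte attractant MCP-1, had 154 UMIs in 26 of 68 Ctrl cells (up to 25 in a cell) and 32 UMIs in 8 of 31 IHG cells (up to 11), a log2 ratio of -1.23 (-1.84 to -0.69). Its neighbour Ccl7, a chemokine for the same cells, had 69 UMIs in 17 cells and 7 UMIs in 6 cells (-2.19, -3.65 to -1.16). Both were detected in a minority of cells in each library. In fibroblast barcodes Ccl2 had a ratio of -0.44 and Ccl7 of -1.19.

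Birc3, an inhibitor of apoptosis that NF-kB induces, had 57 and 10 UMIs (-1.43). Il6 had 33 UMIs in 4 Ctrl cells and 4 UMIs in 2 IHG cells. Nfkbia, which encodes the inhibitor IkB-alpha, went the other way: it had up to 74 UMIs per cell in Ctrl (median 13.5) and 1 to 77 in IHG (median 17), 1191 and 705 in all (0.27, 0.13 to 0.40). Cxcl1 (205 and 95 UMIs, -0.08), Cxcl10 (296 and 122, -0.25) and Icam1 (294 and 128, -0.17) had intervals that held 0, and 1 IHG cell gave 74 of the 95 Cxcl1 UMIs. Of 38 listed genes 24 had at least 20 UMIs, 6 higher and 18 lower in IHG, 1 and 5 past 2-fold, with a median of -0.37 (cholangiocytes -0.22, fibroblasts -0.39, lymphocytes -0.24). The shares past 2-fold over all genes read were 3.83% higher and 4.56% lower. With every barcode thinned to 1000 UMIs, the median was 0.18 over the genes of the list that still had 20 UMIs. That setting read 517 genes in all against 5243, so the 2 medians do not cover the same genes.

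The Nfkbia promoter is shown as the case of a gene of this list with a match to the NF-kB letters GGGA, any 2 bases and TTCC (capitals, on the strand opposite to the gene, 29 bases before the start).
Nfkbia, chr12:55492648-55492897, minus strand: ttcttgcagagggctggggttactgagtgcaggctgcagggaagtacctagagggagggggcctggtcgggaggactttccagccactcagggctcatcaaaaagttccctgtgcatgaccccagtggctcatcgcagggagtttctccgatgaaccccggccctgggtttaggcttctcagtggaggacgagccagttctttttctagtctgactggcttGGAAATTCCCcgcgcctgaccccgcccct
The letters were found in 8 of 33 windows of the list (24.2%) and in 1.21% of all windows. The list was chosen to hold NF-kB target and pathway genes, so its higher share is set in part by that choice.

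Genes of the interleukin 6 pathway, which signals through STAT3, were mostly lower in IHG. Il6ra, the receptor, had 47 UMIs in 27 Ctrl cells and 8 in 8 IHG cells (-1.46, -2.83 to -0.44). Stat3 had 130 and 44 UMIs (-0.53), its target Socs3 241 and 90 (-0.39) and the kinase Pim1 286 and 110 (-0.35), while the shared receptor Il6st had 107 and 51 (-0.04). Of 17 listed genes 11 had at least 20 UMIs, 2 higher and 9 lower, with 6 intervals below 0 and a median of -0.40. Over all 5243 genes read, 602 intervals left out 0, on either side of it. The list's median was -0.18 in cholangiocyte, -0.34 in fibroblast and -0.11 in lymphocyte barcodes.

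Genes of the surface coat differed in both directions. Has1, hyaluronan synthase 1 (chr17:17843323-17855205, mm10), which extrudes the hyaluronan of the glycocalyx, had up to 22 UMIs per cell in Ctrl (median 1.5, 48 of 68 cells) and up to 9 in IHG (median 0, 15 of 31 cells). Its total was 269 UMIs against 41, a log2 ratio of -1.68 (-2.20 to -1.21). In fibroblast barcodes Has1 was higher in IHG, 43 UMIs against 182 (1.25, 0.78 to 1.78). Muc16 had a ratio of -0.89 (-1.54 to -0.31), and Prg4, the joint lubricant lubricin, had 20 and 24 UMIs (1.28, 0.37 to 2.22). Of 22 genes of this kind with at least 20 UMIs, 11 were higher and 11 lower, with a median of -0.01.

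Slpi, a secreted inhibitor of leukocyte proteases, was the most abundant of the 12 genes with the highest ratios. It was found in 52 of 68 Ctrl cells (median 11, up to 256 UMIs) and 26 of 31 IHG cells (median 35, up to 208). The level was 3156 CPM in Ctrl and 5341 in IHG, a log2 ratio of 0.76 (0.66 to 0.86), and it ran over the whole range in both libraries. Without the cells that carry Fgf1, described below, the ratio was 0.29.

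Of 3 fibrillar collagen genes, Col3a1 and Col1a1 were at least 2-fold higher in IHG and Col1a2 was not. Col3a1, collagen III (chr1:45311538-45349706, mm10), had up to 14 UMIs per cell in Ctrl (median 1, 45 of 68 cells) and up to 42 in IHG (median 4, 25 of 31 cells). Its total was 150 UMIs against 213, or 253.9 against 732.1 CPM (log2 ratio 1.53, 1.22 to 1.84), and in fibroblast barcodes the ratio was -0.42 (-0.57 to -0.27). Col1a1 had 90 and 89 UMIs (1.01), with 32 of the IHG UMIs in 1 cell and 68 in the 5 IHG cells that carry Fgf1, and Col1a2 136 and 89 (0.41). Fbln1, the matrix protein fibulin 1, was lower, with 131 and 29 UMIs (-1.13), as was Dcn, the small proteoglycan decorin, with medians of 36 and 28 UMIs per cell (-0.53, -0.63 to -0.43). Of 45 matrix and basement membrane genes 34 had at least 20 UMIs, 19 higher and 15 lower, 3 and 4 past 2-fold, with a median of 0.10. The shares past 2-fold over all genes read were 3.83% higher and 4.56% lower.

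**Figure D4:**
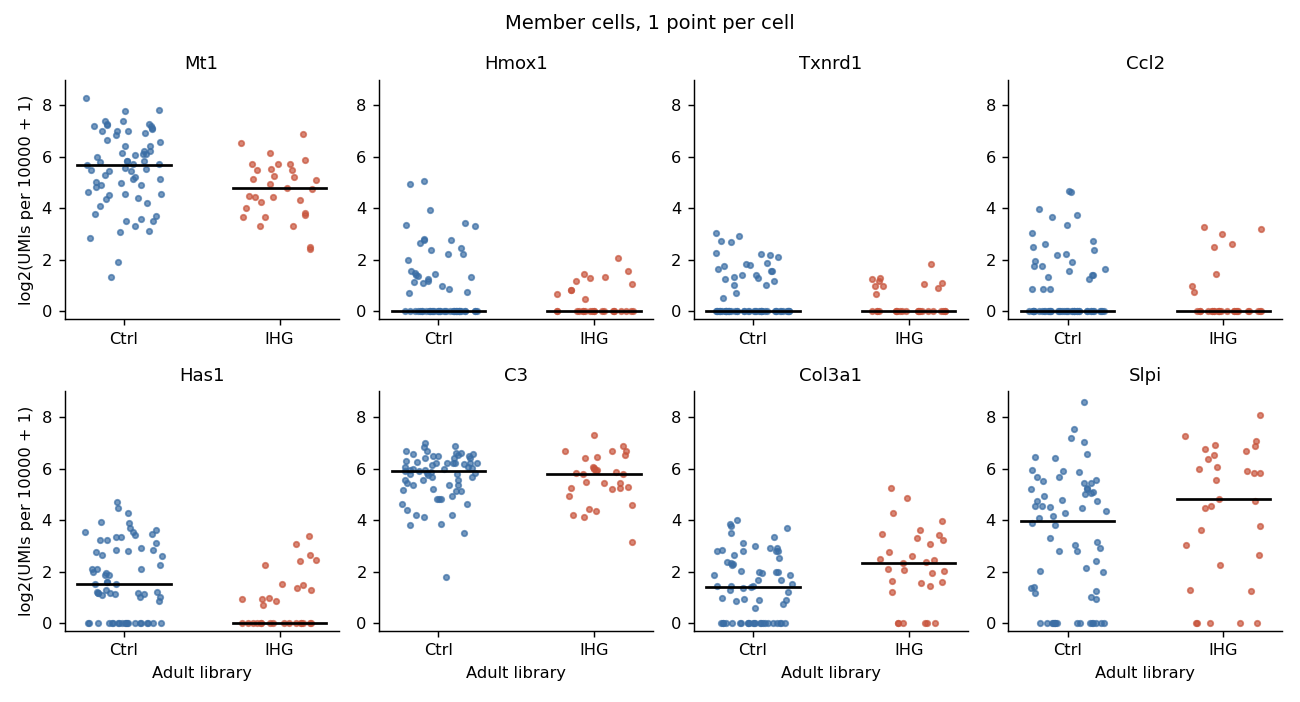
Each point is 1 mesothelial cell of the adult Ctrl (blue, 68 cells) or IHG library (red, 31 cells); the vertical axis is log2(UMIs per 10000 UMIs of the cell + 1) and the black line is the median. Hmox1, Txnrd1 and Ccl2 are at 0 in most cells of both libraries with the high cells in Ctrl, C3 overlaps, and Col3a1 and Slpi have higher medians in IHG.

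Further genes among the 12 lowest and 12 highest by ratio were Plxdc2, a plexin-domain membrane receptor (132 and 16 UMIs, -1.98), Enpp6, a choline phosphodiesterase (127 and 19, -1.69), Tmem119 (162 and 29, -1.44) and Emp1, an epithelial membrane protein (179 and 35, -1.32). Higher were Rasl11a, a small GTPase (110 and 136 UMIs, 1.33), Basp1 (53 and 63, 1.27), Hspe1, the mitochondrial chaperonin HSP10 (229 and 228, 1.02), Pmp22 (95 and 91, 0.96) and Crip2 (93 and 88, 0.94). The long noncoding RNA Gm26917 was lower (139 and 23, -1.55). The noncoding RNA Gm10076 had a ratio of 0.91 here and of 0.94, 1.20 and 0.92 in cholangiocyte, fibroblast and lymphocyte barcodes, so its difference was shared by the libraries' other cells.

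The MHC class II genes and Ccl5, also among the lowest, rested on few cells. H2-Aa, an antigen-presenting chain, had 279 UMIs in 26 Ctrl cells and 54 in 11 IHG cells (-1.34), but 206 of the Ctrl UMIs lay in 1 cell. Without the 8 and 5 Ptprc-positive cells the ratio was 0.55 for H2-Aa, 0.35 for H2-Ab1 and 1.14 for H2-Eb1. Ccl5 had 269 and 47 UMIs, 180 and 39 of them in 1 cell of each library, and its ratio of -1.48 became -0.37.

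Further gene groups had medians on both sides of that of all genes. For the counts past 2-fold below, the shares over all genes read were 3.83% higher and 4.56% lower. Of 25 interferon-stimulated genes, 16 were higher and 9 lower with a median of 0.08, and the 5 past 2-fold upward were low in count, such as Rtp4 (10 and 16 UMIs, 1.67) and Iigp1 (16 and 22, 1.47). In fibroblast barcodes, whose make-up differed between the libraries as given below, the same list had a median of 2.84. Of 18 genes of the endoplasmic reticulum stress response, 5 were higher and 13 lower with a median of -0.09, and the 3 past 2-fold were the chaperones Dnajb11 (21 and 3 UMIs), Pdia4 (49 and 8) and Hyou1 (19 and 3); thinned to 1000 UMIs, the median of this list was 0.32. Nuclear genes of oxidative phosphorylation (27 genes) had a median of 0.16, and glycolysis and hypoxia genes (18) of -0.08. With that thinning the glycolysis and hypoxia median was 0.12 over the genes still read.

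Of 12 genes that glucocorticoids are known to induce or act through, 3 were higher and 9 lower, with a median of -0.23. The summed level of this list was 10366 CPM in Ctrl and 5885 in IHG, and the list holds Mt1 and Mt2, described above. Most of this sum and nearly all of its difference lay in Mt1 and Mt2. Klf9, a Kruppel-like factor, had 196 and 65 UMIs (-0.56, with an interval below 0), and Cebpd, a transcription factor of the acute phase, 262 and 173 (0.42, 0.14 to 0.71). In a list of fetal and imprinted growth genes, the 5 with at least 20 UMIs had ratios above 0 (median 0.45, or 0.27 without the Ptprc-positive cells), none of them past 2-fold. Meg3, an imprinted long noncoding RNA, had 112 UMIs in 25 Ctrl cells and 87 in 17 IHG cells (0.66, 0.24 to 1.07). Keratin and junction genes (21) had a median of 0.21, or -0.01 over those still read after thinning. Retinoid genes (5) had one of 0.21 and proliferation genes (3) one of -0.43.

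Immediate-early genes, which tissue digestion is known to induce, were abundant and none of 29 passed 2-fold. Fos had 3 to 196 UMIs per Ctrl cell (median 54) and 2 to 317 per IHG cell (median 65), a log2 ratio of 0.38, and Jun a ratio of 0.43. The list's median was -0.08, or 0.07 without the Ptprc-positive cells, and that of 20 heat shock genes 0.09. The part of digestion in the differences above was not tested.

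Within each library the genes that varied most between mesothelial cells were a matrix gene and galectin genes. Over 530 genes, in cells with at least 3000 UMIs and no Ptprc, the median coefficient of variation beyond counting error was 0.425 in Ctrl and 0.369 in IHG. The most variable gene in both was Sparc (2.44 and 1.85), a matrix glycoprotein, followed by the galectins Lgals1 (1.69 and 1.74) and Lgals7 (1.57 and 1.60). C3 (0.396 and 0.515) and Gpm6a, a rule gene (0.449 and 0.486), lay far below these, though above the median except for C3 in Ctrl. In Sparc 1 cell of each library held 174 of 510 and 135 of 331 UMIs. Across 56 Ctrl and 25 IHG cells Lgals1 and Lgals7 went together (Spearman rho 0.60 and 0.54). Sparc followed them less, with rho of 0.35 and 0.33 for Lgals1 and 0.26 and 0.08 for Lgals7.

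Fgf1, a secreted fibroblast growth factor and one of the genes most restricted to mesothelial cells here, was found mostly in cells with much Lgals1 RNA. The split by Fgf1 and the genes named with it were chosen after their values were seen. In Ctrl 16 of 68 cells (23.5%, 14.1 to 35.4) held all 60 Fgf1 UMIs, and in IHG 5 of 31 (16.1%, 5.45 to 33.7) held all 26. These cells were as deep as the others, with medians of 7773.5 against 8052 UMIs in Ctrl and 9240 against 8256 in IHG. Of the 16 Ctrl cells 11 had 5 or 6 of the rule genes, as did 3 of the 5 IHG cells, against 48 of 52 and 21 of 26 of the cells without Fgf1. Ptprc was seen in 1 and 0 of the Fgf1-positive cells.

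Genes were ranked by the Ctrl cells alone and then read in IHG. Among 1663 genes with at least 40 UMIs in Ctrl and 20 in IHG, 98 (5.89%) were at least 2-fold higher in the Fgf1-positive Ctrl cells and 193 (11.6%) at least 2-fold lower. In IHG the shares were 8.36% and 15.4%. The 20 highest in Ctrl were all higher in the IHG cells too, 18 by at least 2-fold (median log2 ratio 3.23 in Ctrl, 2.75 in IHG). The 20 lowest in Ctrl were all lower in IHG, 16 by at least 2-fold (median -3.30 and -2.67).

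Higher in the Fgf1-positive cells were galectin, cytoskeletal and matrix genes. Lgals1 had 823 UMIs in the 16 Fgf1-positive Ctrl cells and 186 in the other 52 (log2 CPM ratio 4.04, 3.81 to 4.28), and in IHG 388 in 5 cells and 35 in 26 (5.73, 5.25 to 6.29). The split was not complete. In Ctrl, 1 cell without an Fgf1 UMI held 87 of those 186 Lgals1 UMIs and another held 28, each with 10 UMIs of Enpp2, while 2 Fgf1-positive cells held 3 and 5 Lgals1 UMIs and no Enpp2. A cell with 0 UMIs of Fgf1 may still carry its RNA. Csrp2, a LIM-domain protein of the cytoskeleton, had 265 and 86 UMIs (3.51), and 139 and 21 in IHG (4.97). Enpp2, which encodes autotaxin, the enzyme that makes lysophosphatidic acid, had 122 and 21 UMIs in Ctrl (4.40) and 27 and 0 in IHG, 23 of these in 1 cell. The collagen gene Col1a1 had 67 and 23 UMIs (3.41), and 68 and 21 in IHG (3.95). Lgals7 had 65 and 23 (3.37), and 41 and 25 (2.98).

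Some matrix genes reached fibroblast levels in these cells and others stayed below, and the fibroblast markers Lum, Pdgfra and Pdgfrb were sparse. Mfap5, a microfibril protein and the highest gene of the Ctrl ranking, stood at 455 CPM in Fgf1-positive Ctrl cells against 342 in fibroblast barcodes, and in IHG at 462 against 1598. Igfbp3, which binds insulin-like growth factors, stood at 415 against 443 in Ctrl and 442 against 218 in IHG, and Fbln2, fibulin 2, at 319 against 328 and 542 against 399. Clec3b, the plasminogen-binding protein tetranectin, stood lower than in fibroblasts, at 383 against 1441 and 161 against 2151. Col1a1 stood at 535 against 1926 CPM in Ctrl and 1366 against 1451 in IHG, and Col1a2 at 798 against 2721 and 1245 against 1978. Sparc stood at 2218 against 4421 and 3434 against 2429. Dcn was found in 67 of 68 and 31 of 31 mesothelial cells. It went with Fgf1 across cells (Spearman rho 0.66 over 56 Ctrl cells and 0.56 over 25 IHG cells). In the Fgf1-positive cells Lum had 6 UMIs in 2 Ctrl cells and none in IHG, Pdgfra was found in 3 and 0 cells and Pdgfrb in 0 and 1. All 16 and 5 of them had at least 2 of the 6 fibroblast genes used above, as did 38 of 52 and 22 of 26 of the other mesothelial cells. In fibroblast barcodes Fgf1 stood at 4.62 CPM in Ctrl and 2.62 in IHG and Lgals7 at 13.9 and 2.62, below the 519 and 823 CPM of Lgals7 in the Fgf1-positive cells. Among the rule genes, Upk3b was not lower (141 and 316 UMIs, 0.73 in Ctrl, and 36 and 154, 0.19 in IHG), while Gpm6a was lower in both libraries (-1.54 and -1.24), as was Msln (-1.31 and -0.57).

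The other cells carried adhesion, channel, complement and metabolic genes. Alcam, a cell adhesion molecule, had 4 UMIs in the Fgf1-positive and 453 in the other Ctrl cells (-4.76, -6.81 to -3.56), and 1 and 176 in IHG. Aqp1, the water channel of serous membranes, had 7 and 272 (-3.29), and 1 and 137. C4b had 18 and 830 (-3.60), and 9 and 298 (-2.70), whereas C3 had ratios of -0.51 (-0.64 to -0.38) in Ctrl and 0.04 (-0.15 to 0.22) in IHG. Car3, a carbonic anhydrase, had 1 and 236, and 0 and 61, and Fmo2, a flavin monooxygenase, had 27 and 707 (-2.79), and 19 and 591 (-2.65).

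**Figure D5:**
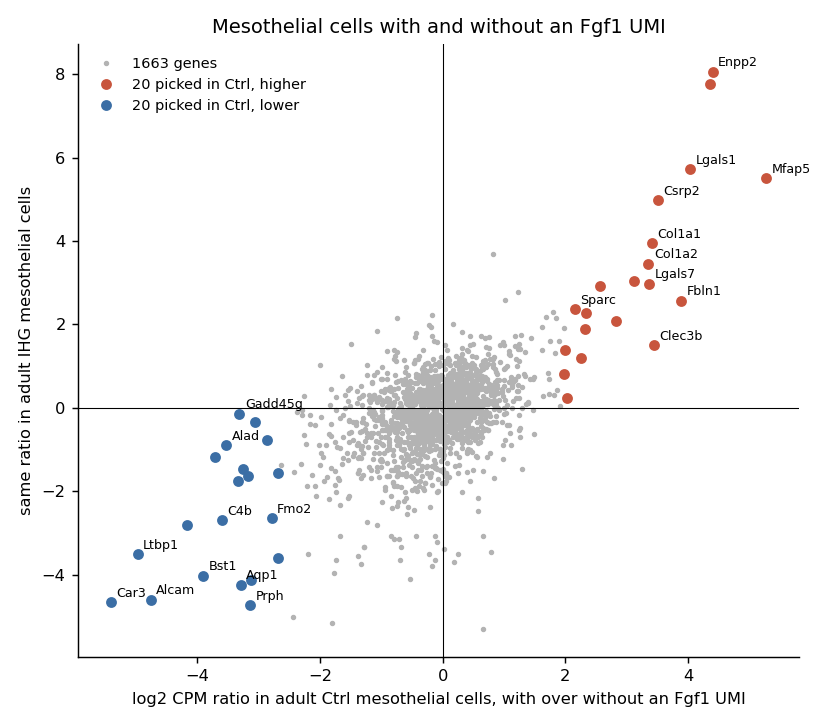
Log2 CPM ratio of cells with over cells without an Fgf1 UMI, in Ctrl (horizontal axis, 16 against 52 cells) and IHG (vertical axis, 5 against 26 cells), for 1663 genes with 0.5 added to each count; Fgf1 itself, which chose the cells, is not drawn, and points of genes with 0 UMIs depend on that addition. The 20 genes highest (red) and 20 lowest (blue) in Ctrl lie on the same side of 0 in IHG.

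The opposition was also read as correlations across cells, a description over cells that share a library, for pairs picked from 465. Most of these cells had no Fgf1 UMI. A rho with Fgf1 thus largely repeats the split on the same cells and is no second check. Over 56 Ctrl and 25 IHG cells Fgf1 went with Enpp2 (Spearman rho 0.79 and 0.75), Lgals1 (0.72 and 0.71) and Csrp2 (0.71 and 0.72) and against Alcam (-0.67 and -0.64) and Aqp1 (-0.67 and -0.65). Alcam went with Myl7, an atrial myosin light chain (0.65 and 0.79). With total UMIs, Fgf1 had a rho of -0.15 and 0.14 and Alcam of 0.17 and -0.05.

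The comparison of the libraries was also run without the Fgf1-positive cells. Hmox1 then had a log2 ratio of -2.69, Has1 of -1.51, Ccl2 of -1.59, Mt2 of -0.84, Mt1 of -0.75 and Col3a1 of 1.48. Fbln1 moved from -1.13 to -0.02, and Enpp2, at 143 and 27 UMIs in all cells (-1.36), had 21 and 0 UMIs.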

How the data were processed

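The deposited values are whole-number counts of UMIs per gene and barcode for 32285 genes, which the file headers trace to Cell Ranger 5.0.0, and hold barcodes with at least 500 UMIs. The submitters' processing notes name the build mm10 and the tools Seurat and Cell Ranger. Filters and rule are those given in the results; no barcode was removed as a doublet in the main values. Scrublet (scanpy 1.11.5) called 0 and 1 adult barcodes, which is too few to have worked, so its 95th percentile served as an alternative. Counts were summed over the cells of a set and library and divided by the set's total (CPM). Log2 ratios have 0.5 added to each count and exact conditional Poisson 95% intervals, and shares have Clopper-Pearson intervals; the limit that a count of 0 allows is 3 counts of the total. A gene was read with at least 20 UMIs over both libraries. Lymphocyte barcodes have at least 2 of 6 B and T cell genes and belong to no other set. Total UMIs were 17987173 in adult Ctrl and 19366065 in adult IHG. Tools were scipy 1.17.1, numpy 2.4.6, pandas 2.3.3 and matplotlib 3.10.9 under Python 3.11.15.

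The cells, the gene lists and the alternatives were chosen with earlier results of these data known. Named genes are the rule genes and listed mesothelial markers, the 25 most enriched, the 12 highest and 12 lowest between libraries at 200 CPM or more, and up to 8 members of each list, without mitochondrial, ribosomal, haemoglobin, immunoglobulin, receptor and sex-linked genes. Positions are from GENCODE M21 (mm10) and promoters from RefSeq. On simulated counts for this comparison of libraries, the intervals covered 96.5% of 5242 genes. Of 184 changed genes 89.7% passed 2-fold in the right direction, as did 5.02% of unchanged genes in either. The simulated counts had counting error alone, as the intervals assume, and no spread between cells. This coverage therefore does not extend to the spread of the real cells. Alternatives were other cell filters, scalings, UMI minimums, folds, thinning, no condition on Epcam, and leaving out Ptprc-positive, high-scoring or deepest cells.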

Additional observations from a re-analysis of the deposited data

Results flagged for a closer look

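Each result here is a gene at least 2-fold apart between the adult libraries in mesothelial cells whose ratio in fibroblast or cholangiocyte barcodes lay on the other side of 0. The intervals cover counting error in 1 library each, and the difference between the cell sets was not tested. Lower in IHG mesothelial cells and higher in IHG fibroblast barcodes were Plxdc2 (log2 ratio -1.98, against 1.09 in fibroblasts, from 35 and 133 UMIs), Has1 (-1.68, against 1.25) and Ccl5 (-1.48, against 1.93), the last resting on few Ptprc-positive cells. Higher in IHG mesothelial cells and lower in IHG fibroblast barcodes were Col3a1 (1.53, against -0.42, from 663 and 873 UMIs), Rasl11a (1.33, against -1.89, from 47 and 22) and Col1a1 (1.01, against -0.41, from 417 and 553). Hspe1 was higher in mesothelial cells (1.02) and slightly lower in cholangiocyte barcodes (-0.24, from 1045 and 356 UMIs). The fibroblast sets hold 49 and 66 barcodes, and their collagen genes are among those that defined them. Their make-up also differs: T and NK cell genes sum to 37.0 CPM in Ctrl and 1157 in IHG, and dendritic cell genes to 139 and 1015. Smooth muscle genes sum to 1173 and 0 CPM, and B cell genes to 619 and 252. In IHG 1 fibroblast barcode holds 51559 of the set's 381218 UMIs. The part of these in the opposite signs was not tested.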

How the results depend on the processing

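No paired analysis was possible because each group has 1 library, and leaving out a replicate was not possible for the same reason. The lower share in IHG held under all 9 settings that change the cells (log2 ratio -1.68 to -1.39). Without the Fgf1-positive cells, a setting chosen after seeing the data as was asking for 5 rule genes, the Ctrl share was 1.00%. Of 53 genes followed, 44 kept their sign under every setting run and 9 did not. Hmox1 lay between -2.69 and -2.27, Mt1 between -1.09 and -0.75, Has1 between -1.90 and -1.51, Col3a1 between 1.35 and 2.30, and the antioxidant median between -0.45 and -0.15. Leaving out Ptprc-positive cells reversed H2-Ab1 (0.35), H2-Aa (0.55) and H2-Eb1 (1.14) and moved the MHC median from -0.50 to 0.30. Leaving out the highest doublet scores reversed H2-Aa (0.22) and H2-Eb1 (0.35) and gave an MHC median of 0.045. Thinning to 1000 UMIs left 53 and 23 cells and 517 genes, so each list median then covers only its genes still read. The MHC median was then -0.015, the NF-kB median 0.18 and the complement median -0.44. The medians of the endoplasmic reticulum stress, glycolysis and hypoxia, immediate-early and keratin lists had the other sign (0.32, 0.12, 0.11 and -0.01). Counts of genes past 2-fold follow the minimum of UMIs and the fold by construction. Higher and lower in IHG, they were 569 and 535 at 10 UMIs, 24 and 53 at 50 UMIs, 21 and 27 after thinning, and 24 and 58 past 3-fold. Above and below the other barcodes, they were 1260 and 112 at 10 UMIs, 258 and 17 at 50 UMIs and 50 and 7 after thinning. Below the other barcodes lay 20 genes past 3-fold and 190 under median-of-ratios scaling, which moved the median of all genes between the libraries to -0.07. The cause of these shifts was not tested. With 31 IHG cells, a gene under about 20 UMIs cannot be read.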

Other observations

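Growth factor genes of the mesothelial cells lay on both sides of 0. Of 31 listed genes of insulin-like and other growth factor signalling, 21 had at least 20 UMIs, 13 higher and 8 lower, with a median log2 ratio of 0.08 (0.004 without Ptprc-positive cells, and 0.0021 over all genes). The 3 past 2-fold, where 3.83% of all genes were that much higher, were Bmp4, a bone morphogenetic protein (33 and 44 UMIs, 1.43, 0.75 to 2.13), Mdk, the heparin-binding factor midkine (29 and 29, 1.02), and Fgf9 (14 and 14, 1.02). Igfbp7 had 685 and 519 UMIs (0.62) and Wnt4 54 and 21 (-0.32). Of 24 transcription factor genes none passed 2-fold, with Gata6 at 150 and 68 UMIs (-0.11) and Klf4 at 956 and 351 (-0.42). Krt14, a basal keratin, had 17 UMIs in 9 Ctrl cells and 30 in 10 IHG cells (1.82, 0.94 to 2.79).

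The same rule found 2 barcodes of 7701 in the fetal Ctrl library and 9 of 8192 in the fetal IHG library, too few to compare. The 9 fetal IHG barcodes held 121288 UMIs. Msln was found in all 9 (168 UMIs) and C3 in 8 (192 UMIs). The fetal genes H19 (214 UMIs), Dlk1 (456) and Igf2 (90) were in all 9, whereas the 99 adult cells held 0, 1 and 4 UMIs of them. The fetal and adult libraries differ in depth and free RNA, and the part of free RNA in these counts was not tested. Fgf1 had no UMI in the 11 fetal barcodes.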
